A study of Homo sapiens with 8 samples.

Results

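The snaR RNAs, a family of small noncoding RNAs, occupied 25 rows of a table of 2962 small RNA features, and they were taken as every row whose name starts with SNAR. The table comes from HEK293, a human embryonic kidney cell line, and compares 4 libraries from cells that received a mimic of the tRNA-Asp-GTC 3′ tDR (a fragment of that tRNA's 3′ end) with 4 libraries from cells that received a scramble control mimic. All of these cells were transfected with Lipofectamine RNAiMax at 50 nM of mimic and collected after 48 h, so lipid and synthetic RNA are common to both groups, and no untransfected cells are among the groups. RNA was isolated with TRIzol and sequenced by OTTR-seq, a method whose reverse transcriptase joins both adapters as it copies the RNA. The labels do not state whether the replicates were separate cultures, so p-values describe library-to-library spread, part or all of which may be technical.

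snaRs are short noncoding RNAs of African great apes and humans that RNA polymerase III transcribes from promoter elements inside the gene. They fold into an extended hairpin. Their genes are recent descendants of the left monomer of Alu elements, which makes them distant relatives of 7SL RNA, and they are grouped by sequence into subsets named with letters. snaR-A is the abundant subset, known for its expression in testis and in many immortalised and cancer lines, and snaR-G genes lie in the promoters of chorionic gonadotropin beta genes.

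The 25 rows comprised 14 of subset A, 5 of subset C, 2 of subset B and 1 each of subsets D, E, G and H. Rows with exactly the same counts in every library were taken once, which left 12 sets, and each set is named here by its lowest-numbered row. SNAR-A4 stands for 9 rows (SNAR-A4 to SNAR-A11 and SNAR-A14), SNAR-C1 for SNAR-C1, SNAR-C2 and SNAR-C5, SNAR-A1 for SNAR-A1 and SNAR-A2, SNAR-A12 for SNAR-A12 and SNAR-A13, and SNAR-B1 for SNAR-B1 and SNAR-B2. SNAR-A3, SNAR-C3, SNAR-C4, SNAR-D, SNAR-E, SNAR-G1 and SNAR-H each had counts of their own. SNAR-A3 differed from SNAR-A4 by 2 counts in tDR library 1 and by 0 in the other libraries. How reads that match several copies were assigned is not stated, so each value is given for the set and not for a single locus.

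The genes behind these rows lie on chromosome 19, except SNAR-H on chromosome 2 (GRCh38.p14, RefSeq; the submitters' processing notes name hg38). All have RefSeq lengths of 119 to 128 bases. A first tandem array runs from SNAR-A12 to SNAR-C1 (chromosome 19, 47907678 to 47955801) between the coding genes SULT2A1 and BSPH1. It holds 10 rows, 5 of subset A and 5 of subset C, with a median spacing of 5.37 kb. A second array runs from SNAR-A4 to SNAR-D (50092489 to 50140320) between ZNF473 and IZUMO2. It holds 12 rows, 9 of subset A, then both B rows and SNAR-D, with a median spacing of 5.34 kb. SNAR-E lies at 46830585 to 46830704, 7.46 kb from AP2S1, and SNAR-G1 at 49037020 to 49037147, 0.125 kb from CGB1, a chorionic gonadotropin beta gene. The annotation places no other gene over most of the loci. SNAR-B2 and SNAR-D overlap LOC105372436, and SNAR-H overlaps LOC101927967 and LOC105374817, so reads at these 3 genes could come from the overlapping gene.

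Only subset A has rows in both arrays. SNAR-A3 lies in the first array and had the counts of the 9 A rows of the second array to within 2, whereas its neighbours SNAR-A1 and SNAR-A2 had 39.3 to 46.4% of its count across the 8 libraries and SNAR-A12 and SNAR-A13 20.2 to 26.6%. The C rows, which lie between and beside A rows in the first array, had between 7.14 and 20.1% of the SNAR-A3 count. The B rows, which stand beside A rows in the second array, had 103 to 118% of the count of SNAR-C3 in the first. These shares compare sets of rows that may hold the same reads. How the count of a set divides among its loci is not known, so levels of single loci cannot be compared.

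**Figure D1:**
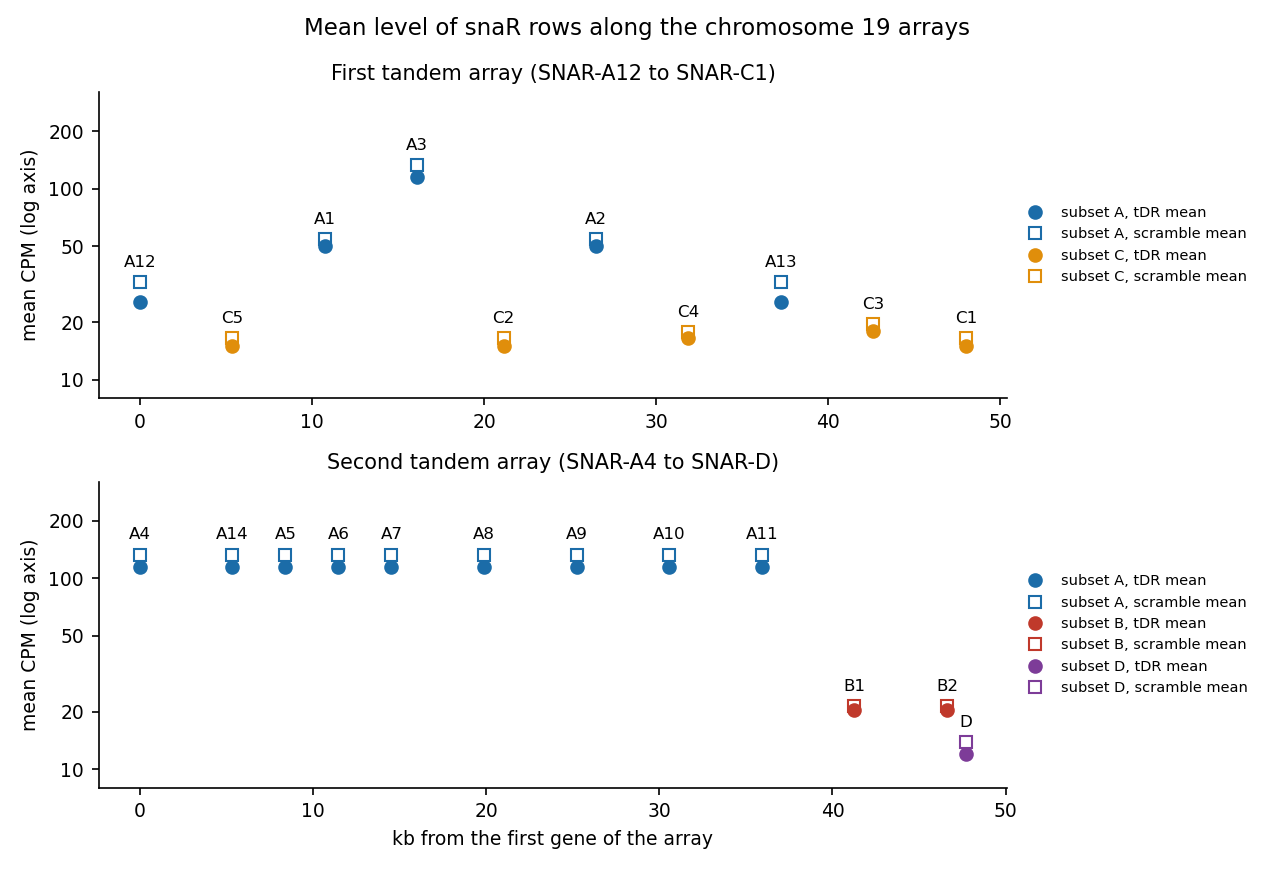
Mean TMM-scaled CPM (log axis) of the snaR rows along the chromosome 19 arrays, against the distance in kb from the first gene of each array; filled circles are means of 4 tDR libraries and open squares means of 4 scramble libraries. SNAR-A3 in the first array stands level with the 9 A rows of the second, and the B, C and D rows stand between 12.0 and 21.5 CPM in both arrays. Rows with equal or nearly equal counts may hold the same reads, so a point gives the level of its set and not of a single locus.

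Counts over all features summed to between 6910186 and 8007025 in the tDR libraries and between 4016295 and 10246336 in the scramble libraries, with scramble library 3 the shallowest. HEK293 microRNA markers (hsa-miR-10a-5p, hsa-miR-17-5p, hsa-miR-20a-5p and hsa-miR-92a-3p) were present in every library. Their summed levels were 556 to 998 CPM in the tDR libraries and 973 to 1463 CPM in the scramble libraries. Of these 4, 1 (hsa-miR-92a-3p) was called, lower in the tDR libraries, by the test described below, which called 6.7% of all features tested. The part of these markers in the snaR values was not tested. Kidney epithelial markers summed to 11.6 to 18.0 CPM in tDR libraries and 14.2 to 21.6 CPM in scramble libraries, and endothelial markers to 5.29 to 9.95 CPM in tDR and 4.32 to 6.51 CPM in scramble libraries. Neural markers summed to 36.7 to 64.4 CPM in tDR and 46.0 to 69.2 CPM in scramble libraries. Of these 3 markers 1 (hsa-miR-128-3p) was called, also lower in the tDR libraries. Of 5 blood markers only hsa-miR-223-3p had a row, at no more than 0.835 CPM in tDR and 0.948 CPM in scramble libraries.

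Subset A was the abundant one. Its lead row SNAR-A3, the row with the highest mean over all libraries, had 839, 778, 767 and 833 counts in tDR libraries 1 to 4, against 1121, 1479, 632 and 1227 counts in scramble libraries 1 to 4. After TMM scaling (trimmed mean of M-values, which sets libraries to a common level on most features), these were 114, 121, 107 and 116 CPM (the count per scaled library size) in the tDR libraries and 142, 140, 142 and 107 CPM in the scramble libraries. Scramble libraries 1, 2 and 3 lay above every tDR library, and scramble library 4 lay among them, so the groups overlapped. SNAR-A3 made up 0.00958% of counts in tDR library 3 (95% exact binomial interval 0.00891 to 0.0103%), its lowest share, and 0.0157% in scramble library 3 (0.0145 to 0.0170%), its highest; the intervals cover counting error only. It ranked 339th of 2962 features by mean CPM.

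The remaining A sets had lower levels in the same libraries. SNAR-A1 had 46.6, 52.8, 49.5 and 51.0 CPM in tDR libraries 1 to 4 and 55.9, 60.8, 59.3 and 42.2 CPM in scramble libraries 1 to 4. Again scramble library 4 was the low one and the other 3 scramble libraries exceeded the tDR libraries. SNAR-A12 had 23.2, 30.1, 25.3 and 23.5 CPM in the tDR libraries and 37.8, 31.1, 32.6 and 28.0 CPM in the scramble libraries. Here scramble library 4 and tDR library 2 crossed, and the remaining libraries of each group did not.

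Subsets B, C and D had lower levels than SNAR-A3 and SNAR-A1, and their range overlapped that of SNAR-A12. SNAR-B1 had 24.7, 21.0, 15.2 and 20.8 CPM in tDR libraries 1 to 4, against 14.6, 22.3, 31.7 and 17.5 CPM in scramble libraries 1 to 4. SNAR-C3, the lead row of subset C, had 22.8, 17.8, 13.4 and 18.4 CPM in the tDR libraries, against 13.0, 19.9, 28.5 and 17.0 CPM in the scramble libraries. In both, scramble library 3 was the highest and scramble library 1 the lowest of the 8, so the scramble group spanned the whole tDR group. SNAR-C4 and SNAR-C1, whose counts were 1 to 21 and 12 to 33 below those of SNAR-C3, ranged from 11.4 to 24.5 and from 10.2 to 23.1 CPM. SNAR-D had 16.1, 10.6, 7.24 and 14.1 CPM in the tDR libraries, against 7.49, 14.7, 21.3 and 11.8 CPM in the scramble libraries. Its lowest value was in tDR library 3 and its highest in scramble library 3.

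The last 3 rows were near or below the range the test can use. SNAR-E had 39, 25, 30 and 35 counts in tDR libraries 1 to 4 and 27, 55, 23 and 49 counts in scramble libraries 1 to 4, or means of 4.57 ± 0.650 CPM in tDR and 4.52 ± 0.847 CPM in scramble libraries (SD, n = 4 each). SNAR-H, the row on chromosome 2, had 12, 4, 2 and 17 counts in the tDR libraries and 9, 9, 5 and 15 in the scramble libraries, with means of 1.23 ± 0.957 CPM in tDR and 1.11 ± 0.188 CPM in scramble libraries (SD, n = 4 each). SNAR-G1 had 1, 0, 1 and 1 counts in the tDR libraries and 1, 6, 1 and 3 in the scramble libraries. The 0 in tDR library 2 allows up to 3 counts, or 0.396 CPM per total count, and no fold change is given for SNAR-G1.

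Per length the lead rows kept the order A, B, C, D, E, H and G in both groups. In the tDR libraries SNAR-A3 averaged 948 CPM per kb, SNAR-B1 170, SNAR-C3 152, SNAR-D 101, SNAR-E 38.1, SNAR-H 10.2 and SNAR-G1 0.811 CPM per kb. In the scramble libraries SNAR-A3 averaged 1098 CPM per kb, SNAR-B1 179, SNAR-C3 165, SNAR-D 116, SNAR-E 37.7, SNAR-H 9.22 and SNAR-G1 2.31 CPM per kb. Within each library SNAR-A3 exceeded every other subset, with at least 491 counts more than SNAR-B1. SNAR-B1 exceeded SNAR-C3 by 6 to 25 counts in each library, SNAR-C3 exceeded SNAR-D by 31 to 60, and SNAR-D exceeded SNAR-E by 22 to 100. Across libraries the ranges of the B, C and D lead rows overlapped, so their order holds within a library and not between libraries. For scale, BCYRN1, the neuronal BC200 RNA that also derives from an Alu element, stood at 27.4 CPM per kb over the 8 libraries, and RN7SL1, the 7SL RNA of the signal recognition particle, at 4043 CPM per kb. These 2 RNAs are longer than snaRs, and dividing by length lowers them more. Without that division BCYRN1 averaged 5.16 CPM in tDR and 5.81 CPM in scramble libraries, above the 4.57 and 4.52 CPM of SNAR-E.

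**Figure D2:**
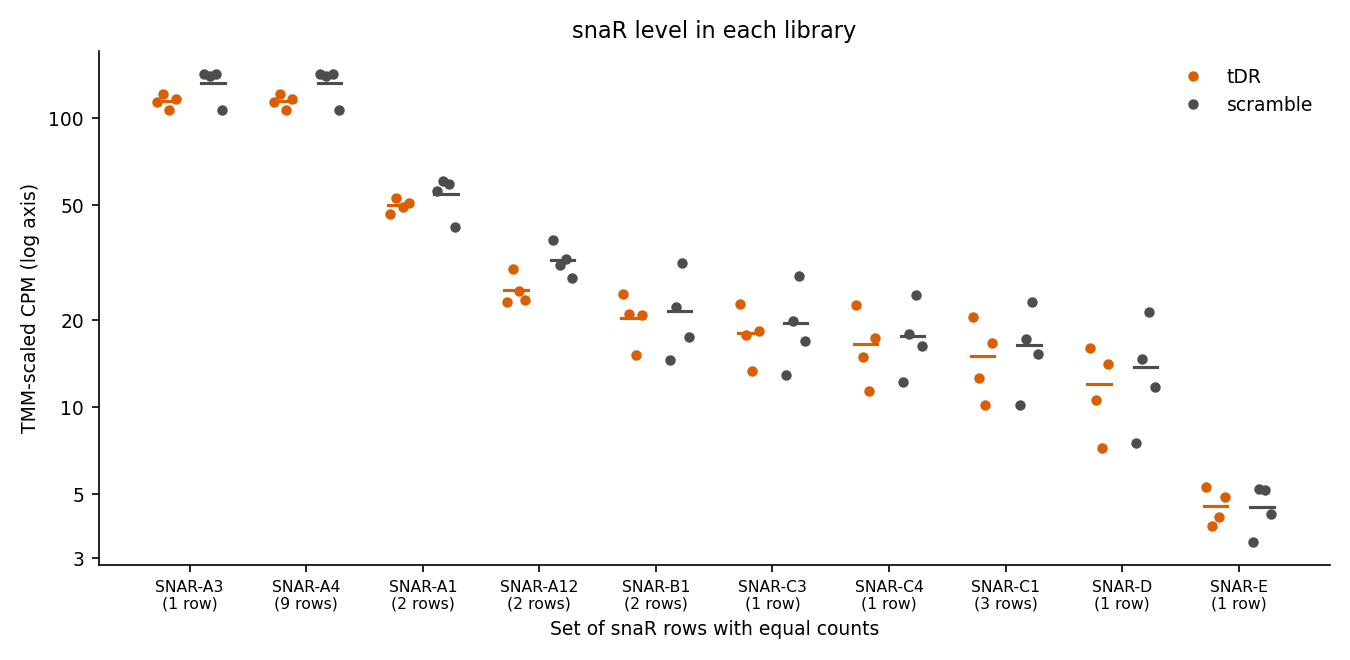
TMM-scaled CPM (log axis) of the 10 tested sets of snaR rows in each tDR library (orange, left) and scramble library (grey, right), with bars at the group means. SNAR-A3 and SNAR-A4 stand above 100 CPM in every library, the B, C and D sets spread between 7.24 and 31.7 CPM, and the groups overlap in every set.

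The subsets differed in how far they moved from library to library. Between its lowest and highest library the level of an A set changed by 1.33 to 1.63 times, and that of a B, C or D set by 2.15 to 2.95 times. Within the tDR group the coefficient of variation was 5.25 to 12.5% in the 4 A sets and 19.2 to 32.5% in the 5 B, C and D sets. Within the scramble group it was 12.8 to 15.5% and 28.8 to 42.1%. Counting error alone would give 3.23% for SNAR-A3, 8.37% for SNAR-C3 and 10.1% for SNAR-D.

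The B, C and D sets had their high and low values in shared libraries. All 5 lay above their own mean of 8 libraries in tDR library 1, scramble library 2 and scramble library 3, and all 5 lay below it in tDR library 3, scramble library 1 and scramble library 4. The median set stood at 1.51 times its mean in scramble library 3, at 0.665 times in tDR library 3 and at 0.688 times in scramble library 1. The A sets followed another order, with all 4 above their mean in scramble libraries 1, 2 and 3 and all 4 below it in tDR libraries 1, 3 and 4 and scramble library 4. In scramble library 1 the median A set stood at 1.15 times its mean. Scramble library 3, where the B, C and D sets were highest, was the library with the fewest counts, and scramble library 1 and tDR library 3, where they were lowest, had 8235808 and 8007025 counts. In the deepest libraries, scramble 2 and 4 with 10208695 and 10246336 counts, the median B, C or D set stood at 1.06 and 0.910 times its mean. The part of depth in these values was not tested.

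Ratios within a library do not depend on how libraries are scaled. SNAR-A1 over SNAR-A3 varied by 1.18 times between the 8 libraries and SNAR-B1 over SNAR-C3 by 1.15 times. SNAR-C3 over SNAR-A3 varied by 2.21 times and SNAR-D over SNAR-A3 by 2.86 times. In tDR libraries 1 to 4 SNAR-C3 held 19.9, 14.7, 12.5 and 15.9% of the SNAR-A3 count, against 9.10, 14.2, 20.1 and 15.9% in scramble libraries 1 to 4. The lowest and the highest of these 8 shares were both scramble libraries. Rows that share reads would be held to a near-constant ratio by the counting, so the steady ratios of similar rows describe the table and may not describe separate genes.

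**Figure D3:**
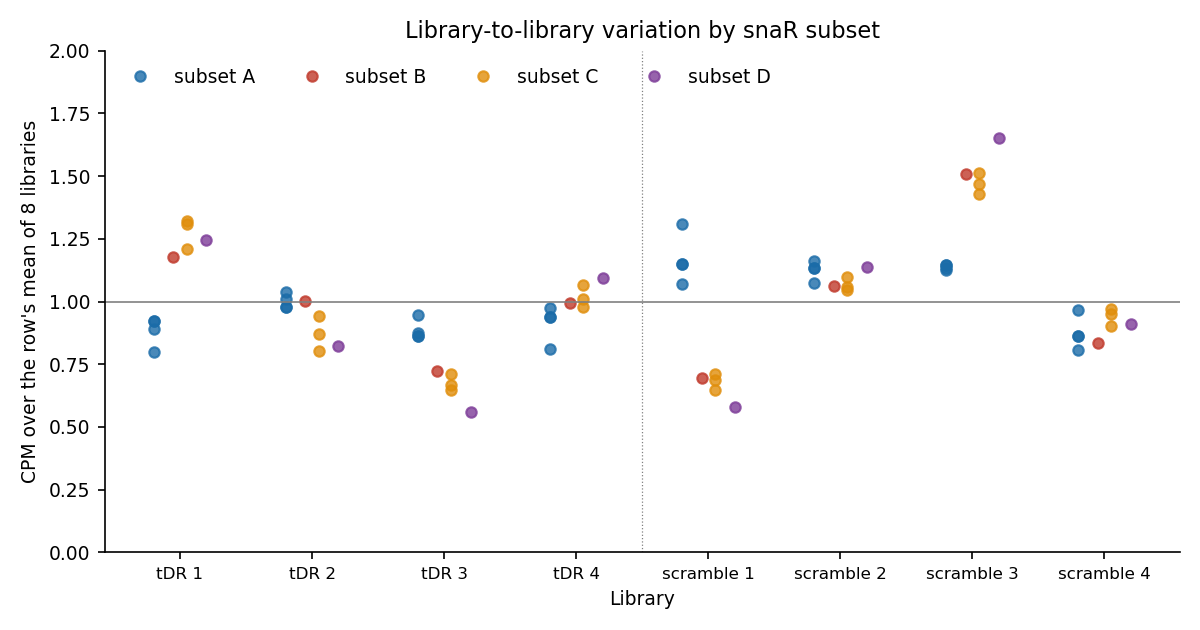
CPM of each A, B, C and D set divided by that set's mean over the 8 libraries, by library, tDR libraries on the left and scramble libraries on the right of the dotted line. The A sets (blue) stay closer to 1 than the B, C and D sets, which are together high in scramble library 3 and together low in tDR library 3 and scramble library 1.

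The comparison of tDR with scramble cells asked whether the tRNA fragment was accompanied by a change in these RNAs, and no snaR row was called. The counts were tested with edgeR's quasi-likelihood test over all 1761 features that passed its filter on low counts, with Benjamini-Hochberg adjustment and a threshold of 0.05. SNAR-G1 and SNAR-H did not pass the filter, which left 23 rows in 10 sets. Of these 10 sets 0 were called in either direction, and 0 had an unadjusted p below 0.05. Over all features tested edgeR called 6.7%, with 5.34% higher and 1.36% lower in the tDR libraries, and 21.5% had an unadjusted p below 0.05. DESeq2 and limma-voom also called 0 of the 10 sets, against 10.8% and 6.81% of all features tested; 1 and 0 sets had an unadjusted p below 0.05. The CPM values of the 2 groups did not overlap in 0 of the 10 sets, against 13.3% of all features. In bulk RNA fewer cells that make an RNA and less of it per cell cannot be told apart.

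The A sets had negative fold changes that did not pass, and under scaling on microRNAs alone, which moved the median of all features to 0.36, those of SNAR-A1, SNAR-A3 and SNAR-A4 were positive (0.21, 0.11 and 0.11). SNAR-A12 averaged 25.5 ± 3.20 CPM in tDR and 32.4 ± 4.13 CPM in scramble libraries (SD, n = 4 each), giving a log2 ratio of tDR to scramble of -0.34 (SE 0.17, 95% interval -0.69 to 0.0036, adjusted p = 0.236 by edgeR), and it had the lowest p of the family. SNAR-A3 averaged 115 ± 6.04 CPM in tDR and 133 ± 17.4 CPM in scramble libraries (n = 4 each), giving a log2 ratio of tDR to scramble of -0.21 (SE 0.14, 95% interval -0.51 to 0.091, adjusted p = 0.426 by edgeR). SNAR-A4 had -0.21 and SNAR-A1 -0.12, with edgeR adjusted p of 0.424 and 0.733. The intervals of the 4 A sets together reach from -0.69 to 0.19. Without scramble library 4, which was the low one, SNAR-A3 stood at -0.32 (edgeR adjusted p = 0.206; the range over the 20 alternatives was 0.162 to 0.784). Over 20 alternatives SNAR-A12 kept a negative sign, with an unadjusted p below 0.05 in 10 of them and adjusted p from 0.0704 to 0.946.

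The B, C and D sets had estimates of -0.17 to -0.056 with wider intervals, and positive ones under scaling on microRNAs alone (0.18 to 0.28). The median of all features was 0.36 under that scaling. SNAR-B1 averaged 20.4 ± 3.92 CPM in tDR and 21.5 ± 7.47 CPM in scramble libraries (SD, n = 4 each), giving a log2 ratio of tDR to scramble of -0.056 (SE 0.22, 95% interval -0.52 to 0.41, adjusted p = 0.926 by edgeR). SNAR-C3 averaged 18.1 ± 3.85 CPM in tDR and 19.6 ± 6.60 CPM in scramble libraries, giving a log2 ratio of tDR to scramble of -0.096 (SE 0.23, 95% interval -0.57 to 0.38, adjusted p = 0.867 by edgeR). SNAR-C1, the C set with the lowest p, had -0.11 and SNAR-C4 -0.078. SNAR-D averaged 12.0 ± 3.90 CPM in tDR and 13.8 ± 5.82 CPM in scramble libraries, giving a log2 ratio of tDR to scramble of -0.17 (SE 0.28, 95% interval -0.77 to 0.42, adjusted p = 0.812 by edgeR). SNAR-E had 0.026 (SE 0.26, 95% interval -0.51 to 0.57, edgeR adjusted p = 0.970), and its sign, like those of the B, C and D sets, turned with single libraries. Without scramble library 3 SNAR-B1, SNAR-C3 and SNAR-D stood at 0.14, 0.092 and 0.057, and without tDR library 3 at 0.068, 0.029 and 0.010. The interval of SNAR-D runs from 0.587 to 1.34 times the scramble level.

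As a group, 9 of the 10 tested sets had a log2 fold change below 0, with a median of -0.12, against 47.8% of all features below 0 and a median of 0.020. The sets may share reads, so they cannot be taken as independent, and of the 10 estimates 0 passed. Under scaling on microRNAs alone 1 of the 10 was below 0, with the median of all features at 0.36. Relative to the median of all features, the snaR median was -0.13 under that scaling and -0.14 under TMM. The snaR median turned with single libraries, to 0.057 without scramble library 3 and 0.029 without tDR library 3. In both of these fits 11 sets passed the filter, so their medians are not over the same 10 sets.

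**Figure D4:**
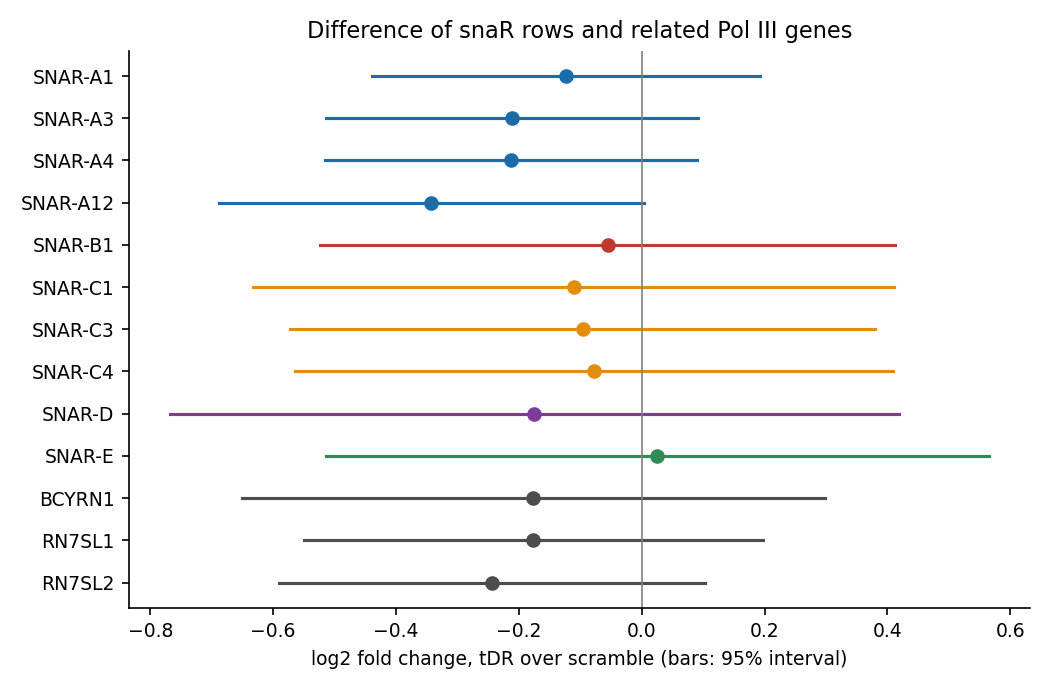
Log2 fold change (tDR over scramble, edgeR) with its 95% interval for the 10 tested sets of snaR rows and for BCYRN1, RN7SL1 and RN7SL2. All 13 intervals include 0; that of SNAR-A12 ends at 0.0036.

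Whether the subsets moved unequally was asked with ratios of lead rows inside each library, for the 5 subsets whose lead row had a mean count of at least 20. This gave 10 pairs, each tested by exact two-sided permutation of the libraries (70 arrangements), whose smallest possible p is 0.0286. SNAR-A3 over SNAR-C3 had a mean log2 ratio of 2.68 ± 0.28 in the tDR and 2.81 ± 0.48 in the scramble libraries (SD, n = 4 each), a difference of -0.12 (exact permutation p = 0.686, adjusted p over the 10 pairs = 0.762). SNAR-A3 over SNAR-E gave 4.64 ± 0.22 in tDR and 4.87 ± 0.33 in scramble libraries, a difference of -0.23 (exact permutation p = 0.314, adjusted p = 0.762), and -0.069 without scramble library 1. SNAR-B1 over SNAR-D gave 0.80 ± 0.25 in tDR and 0.67 ± 0.19 in scramble libraries, a difference of 0.13 (exact permutation p = 0.286, adjusted p = 0.762), the lowest p of the 10. The groups overlapped in the 10 ratios, and adjusted p ran from 0.762 to 0.886. After adjustment over the 10 pairs, a p of 0.0286 in a single pair alone cannot pass the threshold. Nor can that p in the pairs of a single subset alone, so the adjusted test could not call a lone shift of either kind. Before adjustment a pair could reach 0.0286, and the lowest p was 0.286. A difference between subsets in their response was not detected, and the adjusted p cannot decide whether a single subset moved.

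Among other RNA polymerase III genes, a list of 37 gave 36 tested features. Of these, 2 were called higher and 0 lower in the tDR libraries, against 5.34% and 1.36% of all features tested. The list holds 14 RNA5S rows with the same counts, so the share called depends on how equal rows are counted. Taken once, equal rows leave 22 features in the list. The fit on such rows called 2 of the list higher and 1 (RNU6ATAC) lower, against 93 and 37 of all 1680 features. RNY4, the Y4 RNA bound by Ro60, and RMRP, the RNA of the RNase MRP ribonucleoprotein, were the 2 called higher in both fits. RNY4 had 779, 907, 825 and 776 CPM in tDR libraries 1 to 4 and 464, 524, 520 and 431 CPM in scramble libraries 1 to 4, which is 0.76 as a log2 fold change (SE 0.15; adjusted p = 0.00280 by edgeR). RMRP had 96.1, 105, 102 and 84.1 CPM in the tDR libraries and 72.6, 63.0, 59.5 and 57.2 CPM in the scramble libraries, which is 0.62 as a log2 fold change (SE 0.14; adjusted p = 0.0119 by edgeR). The call of RMRP was lost under total-count scaling and with the replicate block. In the fit over 1761 features, the 22 features of the list with equal rows taken once had 15 below 0. Their median log2 fold change was -0.083. Over all 1761 features, where equal rows count each time, 47.8% were below 0, with a median of 0.020. The fit on equal rows taken once had a median of 0.021 over its 1680 features.

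The genes of shared Alu or 7SL origin were not called either. BCYRN1 had 5.32, 5.14, 5.29 and 4.89 CPM in tDR libraries 1 to 4, against 5.46, 6.07, 5.62 and 6.10 CPM in scramble libraries 1 to 4. Its groups did not overlap, but at this low count the difference of -0.18 on the log2 scale, with an SE of 0.23, missed the threshold (adjusted p = 0.754 by edgeR). RN7SL1 stood at 1135 ± 207 CPM in tDR and 1283 ± 332 CPM in scramble libraries (SD, n = 4 each), which is -0.18 as a log2 fold change (SE 0.18; adjusted p = 0.643 by edgeR). RN7SL2 stood at 762 ± 102 CPM in tDR and 903 ± 186 CPM in scramble libraries (SD, n = 4 each), which is -0.24 as a log2 fold change (SE 0.17; adjusted p = 0.424 by edgeR). The estimates of these 3 genes lie within the range of the A sets. The difference between these genes and the snaR rows was not tested.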

How the data were processed

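The authors deposited raw counts per small RNA feature and a normalized signal. Per the labels the RNA was TRIzol total RNA made into OTTR-seq libraries; hg38 is named in the submitters' processing notes. Aligner, counter and annotation: not given in the sources used here. For features other than tRNAs the deposited normalized signal equals the count divided by 1 factor per library, as comparison of both files showed. The 2 rows scr and scr2, which name no gene, were left out, which left 2962 of 2964 rows. They held 0.353 to 0.565% of counts in the scramble libraries and 0.000749 to 0.00389% in the tDR libraries.

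Counts were tested with edgeR 4.0.16 in R 4.3.3 (filterByExpr by group, TMM, robust quasi-likelihood fit, no covariates), with Benjamini-Hochberg adjustment over 1761 features; the biological coefficient of variation was 19.0%. SE is the size of the log2 fold change over the square root of F. Ratios used counts plus 0.5. Alternatives were DESeq2 1.42.0, limma 3.58.1 (voom, and log2 of the normalized signal plus 1), other scalings and filters, equal rows taken once, a replicate block and leaving out libraries; the authors' factors and leaving out tDR libraries 3 and 4 were chosen after seeing the data. Counts of the 12 replicate pairs differed beyond sampling noise (chi-square per degree of freedom of at least 15.6). Gene positions and lengths come from RefSeq (GRCh38.p14), where all 25 rows matched by symbol. No row was named SNAR-F, SNAR-G2 or SNAR-I, so these were not analysed here. Permutation tests were run with scipy 1.17.1 under Python 3.11.15, and figures drawn with matplotlib 3.10.9.

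The members, the lists and the tests were chosen with earlier results of these data known. The rule for naming rows takes the lead row of each subset, every called snaR row, the row of lowest p in each subset, the called genes of the RNA polymerase III list and RN7SL1, RN7SL2 and BCYRN1.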

Additional observations from a re-analysis of the deposited data

Results flagged for a closer look

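Of 44 groups of 4 values examined for a single library far from the others (chance flags about 1 group in 20), 8 were picked out. In the scramble group SNAR-A3 and SNAR-A4, whose counts are nearly equal, had 107 CPM in library 4, while the nearest of the others had 140 CPM. SNAR-G1 was at 0 CPM in tDR library 2, against 0.136 CPM in the nearest tDR library, a difference of 1 count. The remaining 5 were log2 ratios between lead rows in the scramble group. SNAR-A3 over SNAR-E was 5.35 in library 1 and 4.75 in the nearest library, and SNAR-B1 over SNAR-D was 0.96 in library 1 and 0.60 in the nearest. SNAR-B1 over SNAR-C3 was 0.044 in library 4 and 0.15 in the nearest. In library 3 SNAR-B1 over SNAR-E was 2.59, with the nearest at 2.09, and SNAR-C3 over SNAR-E was 2.44, with the nearest at 1.98.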

How the results depend on the processing

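The count of snaR sets called was 0 in each direction under all 20 alternatives. The count over all features moved more: lower calls were 39 with DESeq2 size factors, 46 with a mean count of at least 50, 37 with equal rows taken once and 1 without tDR libraries 3 and 4; total counts gave 54 higher and 39 lower, microRNA scaling 157 higher and 1 lower, the DESeq2 Wald test 191 in all with 61 lower, and limma on the deposited normalized values 185 in all, 145 higher and 40 lower. With 1 library left out the totals ran from 65 to 164, with 52 to 117 higher and 3 to 47 lower. In the RNA polymerase III list 1 gene, RNU6ATAC, was called lower with DESeq2 size factors, total counts, the 50-count filter, the DESeq2 Wald test, equal rows taken once and without scramble library 4 or tDR library 1 (range with 1 library left out 0 to 1); higher calls were 1 under total counts. Whether the replicate numbers pair the libraries is not stated. Deviations of same-numbered libraries from their group means correlated at -0.34 to -0.12. Such deviations are tied to each other by the group mean, so these values cannot settle it. The replicate block called 39 features, 38 higher and 1 lower, with 0 snaR sets and 1 gene of the list higher.

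Total-count scaling moved the median of all features to -0.13 and SNAR-E to -0.11. Scaling on microRNAs alone moved that median to 0.36 and gave SNAR-A1 0.21, SNAR-A3 0.11, SNAR-A4 0.11, SNAR-B1 0.28, SNAR-C1 0.24, SNAR-C3 0.25, SNAR-C4 0.26 and SNAR-D 0.18; relative to all features the snaR median was -0.13 under it and -0.14 under TMM. It also raised the tDR mean of SNAR-A3 to 131 CPM and of SNAR-E to 5.24 CPM. SNAR-B1 was 0.0068 with limma-voom and 0.012 with limma on the deposited normalized values. Without tDR libraries 3 and 4 SNAR-B1, SNAR-C1, SNAR-C3 and SNAR-C4 were 0.11, 0.039, 0.074 and 0.11. With 1 library left out SNAR-B1 ran from -0.20 to 0.14, SNAR-C1 from -0.29 to 0.053, SNAR-C3 from -0.25 to 0.092, SNAR-C4 from -0.26 to 0.072, SNAR-D from -0.38 to 0.057 and SNAR-E from -0.085 to 0.10, while the A sets stayed below 0. The ratio differences ran from -0.34 to 0.032 for SNAR-A3 over SNAR-B1, -0.29 to 0.092 for SNAR-A3 over SNAR-C3, -0.25 to 0.26 for SNAR-A3 over SNAR-D, -0.15 to 0.072 for SNAR-B1 over SNAR-E, -0.00019 to 0.16 for SNAR-C3 over SNAR-D, -0.18 to 0.019 for SNAR-C3 over SNAR-E, -0.33 to -0.069 for SNAR-A3 over SNAR-E, -0.33 to -0.010 for SNAR-D over SNAR-E, 0.017 to 0.068 for SNAR-B1 over SNAR-C3 and 0.045 to 0.23 for SNAR-B1 over SNAR-D. The cause of these turns was not tested. Depth limits SNAR-E, SNAR-H and SNAR-G1, with mean counts of 35.4, 9.13 and 1.75.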
